A study of Mus musculus with 4 samples.

Results

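The genes described here are the type I interferon response genes, a module of 39 mouse symbols chosen by name and not by any measured value. Rows for 37 of them were matched among the 31253 genes of the deposited tables, and Mx1 and Mx2 were not analysed here. Transcripts of single gingival cells were counted in 4 libraries, 1 per group. The Itga9-Lyz2-cKO periodontitis library (cKO_PD) and the Itga9-Lyz2-cHet periodontitis library (cHet_PD) came from mice with a silk ligature around the second upper molar plus Porphyromonas gingivalis, and the gingiva was taken at day 14. The Itga9-Lyz2-cKO control (cKO_control) and the Itga9-Lyz2-cHet control (cHet_control) are labelled control, with no further description. The genotype names join Itga9, the alpha9 subunit of an integrin, with Lyz2, a lysozyme gene of neutrophils, monocytes and macrophages whose locus is widely used to drive Cre in myeloid cells. All 4 groups therefore carry the Itga9-Lyz2 label, the cHet groups are by their name heterozygous and not wild type, and the title of the series names macrophages as the cells of interest. Age, sex, strain, the deleted exons and the number of mice behind each library are not given in the sources used here. With 1 library per group no difference had a replicate check, so no p-value is given, and the 95% intervals below hold counting error only.

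Type I interferons, chiefly interferon-beta and the interferon-alphas, are secreted after a cell senses foreign or misplaced nucleic acid and bind the receptor pair Ifnar1 and Ifnar2 on the same or on neighbouring cells. The receptor-bound kinases Jak1 and Tyk2 then phosphorylate Stat2, which joins Irf9 in a complex that binds the interferon-stimulated response element in front of the response genes. The products block viral RNA and protein synthesis, tag proteins with the ubiquitin-like modifier Isg15, sense nucleic acid and, as Usp18 does, damp the receptor. Bacterial nucleic acid and lipopolysaccharide, which abound at an inflamed gum margin, can set off the same secretion.

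The element itself was sought in the promoter windows of the members, to show which of them carry its core letters next to their start. RefSeq windows on GRCm38.p6, from 250 bases before to 50 bases after a gene's start, were matched by symbol for 28 of the 37 members, with 34 windows in all. The core was searched as the letters GAAA, any 2 bases and GAAA again, on both strands, and matches were allowed to overlap. It was held by 13 of the 28 members (46.4%), against 1079 of the 27025 genes with a window (3.99%). Counted by window it was found in 15 of 34 (44.1%), against 1131 of 32851 (3.44%). The 13 members were Ifit1, Ifit3, Ifit3b, Isg15, Oas1a, Oas3, Rsad2, Bst2, Stat2, Ifih1, Trim30a, Slfn5 and Slfn8. A match describes letters only and is not a bound site.

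Windows of 4 members on which the results below turn are printed in the direction of transcription, with every base of a match in capitals. Ifit1, which binds foreign RNA that lacks a normal cap, lies at chr19:34640639-34640938 on the plus strand and holds the core on the opposite strand, at 104 and 85 bases before the start. Isg15, the ubiquitin-like modifier, lies at chr4:156200769-156201068 on the minus strand and holds 3 overlapping matches at 78, 72 and 66 bases before the start. Rsad2, the enzyme viperin that makes a chain-terminating nucleotide, lies at chr12:26456403-26456702 on the minus strand and has 1 match on the opposite strand at 120 bases before the start. Slfn4, a Schlafen gene of myeloid cells, lies at chr11:83174936-83175235 on the plus strand and is shown as the most abundant member of neutrophils; these letters do not occur in its window.
Ifit1: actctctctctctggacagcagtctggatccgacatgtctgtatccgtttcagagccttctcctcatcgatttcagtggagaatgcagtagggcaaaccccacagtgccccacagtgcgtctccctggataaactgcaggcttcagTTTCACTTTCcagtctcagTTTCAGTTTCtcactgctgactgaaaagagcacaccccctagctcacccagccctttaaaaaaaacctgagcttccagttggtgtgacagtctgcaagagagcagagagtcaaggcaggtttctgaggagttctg
Isg15: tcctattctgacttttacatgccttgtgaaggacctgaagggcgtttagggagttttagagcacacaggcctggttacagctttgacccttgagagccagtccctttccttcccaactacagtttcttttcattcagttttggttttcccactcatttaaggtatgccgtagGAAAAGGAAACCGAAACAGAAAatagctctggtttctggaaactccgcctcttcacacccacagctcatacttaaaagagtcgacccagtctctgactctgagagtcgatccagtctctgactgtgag
Rsad2: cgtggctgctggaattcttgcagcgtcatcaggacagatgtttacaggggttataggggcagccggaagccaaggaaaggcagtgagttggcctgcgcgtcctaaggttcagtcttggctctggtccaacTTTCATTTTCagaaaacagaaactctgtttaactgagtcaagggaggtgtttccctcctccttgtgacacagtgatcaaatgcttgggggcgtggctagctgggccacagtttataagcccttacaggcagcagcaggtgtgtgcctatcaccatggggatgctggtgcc
Slfn4: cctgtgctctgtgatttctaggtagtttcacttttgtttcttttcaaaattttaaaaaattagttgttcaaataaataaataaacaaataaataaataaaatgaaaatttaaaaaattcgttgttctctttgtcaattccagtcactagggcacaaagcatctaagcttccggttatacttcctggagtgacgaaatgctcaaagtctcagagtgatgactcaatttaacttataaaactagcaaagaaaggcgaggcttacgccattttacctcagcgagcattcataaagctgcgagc

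Several members are neighbours, so their rows are not independent of one another in position. In mm10 (GENCODE M21) Ifit2, Ifit3, Ifit3b and Ifit1 lie in a row on the plus strand of chromosome 19 between 34550694 and 34650009. Rsad2 (chromosome 12, 26442746 to 26456452) and Cmpk2 (26469204 to 26479837), a mitochondrial nucleotide kinase, are back to back. The Schlafen members Slfn5, Slfn8, Slfn1 and Slfn4 lie on chromosome 11 between 82951349 and 83190216. Dtx3l (chromosome 16, 35926511 to 35939151) and Parp9 (35938470 to 35972605) overlap on opposite strands. On chromosome 5, Oasl2 and Oasl1 lie between 114896936 and 114937915, and Oas2, Oas3 and Oas1a between 120730333 and 120907521. Ifit3 and Ifit3b are near copies, and the Schlafen, Oas1, Ifi27 and Ifi200 families and Trim30a have close relatives, so reads could be split among copies and the values of such genes are uncertain to that extent.

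The libraries held 21368197 unique molecular identifiers (UMIs, 1 per captured transcript) in cKO_PD, 36231795 in cHet_PD, 62914870 in cKO_control and 58702911 in cHet_control. The lowest total of a deposited barcode was 500 UMIs in both PD libraries and 1501 in both controls, and median mitochondrial shares were 5.82%, 5.39%, 11.9% and 10.1% in the same order. Cells were placed in classes by marker genes, none of which is a member. A class carries the name of its markers and should be read as cells like that type. Between 65 and 116 barcodes were shared by any pair of libraries, at most 1.32% of the smaller one. Levels are given as CPM, the UMIs of a gene divided by all UMIs of that class in that library and scaled to 1e+06. A member was tested in a pair of libraries where it held 20 UMIs over both and each held 40 cells of the class. It was counted as higher or lower where the CPM, each with 10 added, were at least 2-fold apart and the interval of the ratio excluded 1. A member could reach 20 UMIs through 1 library alone, and its call then leans on the library that let it in. Itga9 had 18.9 CPM (7 UMIs) in mononuclear phagocytes of cKO_PD, 105 (79 UMIs) in cHet_PD, 43.0 (18 UMIs) in cKO_control and 121 (34 UMIs) in cHet_control. Whether the counted transcript end lies inside the deleted part is not given, so this level does not check the deletion.

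In control gingiva the members together were most abundant in blood vessel lining and in phagocytes, among classes with at least 30 cells. Their summed level in blood endothelium was 2376 CPM (2287 to 2467) in cKO_control and 2466 CPM (2330 to 2607) in cHet_control. Mononuclear phagocytes, which join resident macrophages and inflammatory monocytes or macrophages, had 2221 CPM (2081 to 2369) in cKO_control and 2638 CPM (2452 to 2835) in cHet_control. The intervals of these 2 classes overlapped in each control, and their order was not the same in both. Mural cells (pericytes and smooth muscle) had 544 and 568 CPM, fibroblasts 862 and 769 CPM, and basal keratinocytes 230 and 158 CPM in cKO_control and cHet_control. Neutrophils in the controls were only 20 and 24 cells, with 2090 and 2112 CPM in cKO_control and cHet_control.

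In periodontitis the order changed in the heterozygous library. Neutrophils of cHet_PD had 12882 CPM (12612 to 13156), above blood endothelium with 7421 CPM (7291 to 7553), phagocytes with 3848 CPM (3709 to 3990) and mural cells with 2495 CPM (2298 to 2705). These 4 intervals did not overlap. In cKO_PD the same classes had 1366 CPM (1277 to 1459) in neutrophils, 3145 CPM (3024 to 3271) in blood endothelium, 1865 CPM (1729 to 2010) in phagocytes and 509 CPM (435 to 592) in mural cells. Blood endothelium was thus above neutrophils, phagocytes and mural cells in that library.

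The classes also differed in which member made up the sum. Slfn4 alone was 57.9% of the member UMIs of neutrophils in cKO_PD, 37.0% in cHet_PD, 47.0% in cKO_control and 59.8% in cHet_control. Slfn5, another Schlafen gene, led in blood endothelium with 29.6%, 17.8%, 31.8% and 34.5% in the same order. In keratinocyte layers the leading member was most often Irf9, the DNA-binding partner of Stat2, with 17.9% in basal keratinocytes of cHet_PD and 21.8% in those of cHet_control. In junctional-type epithelium, the collar of cells that seals gum to tooth, Ifi204, a DNA sensor of the Ifi200 family, made up 52.7% of member UMIs in cKO_PD and 27.9% in cHet_PD.

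**Figure D1:**
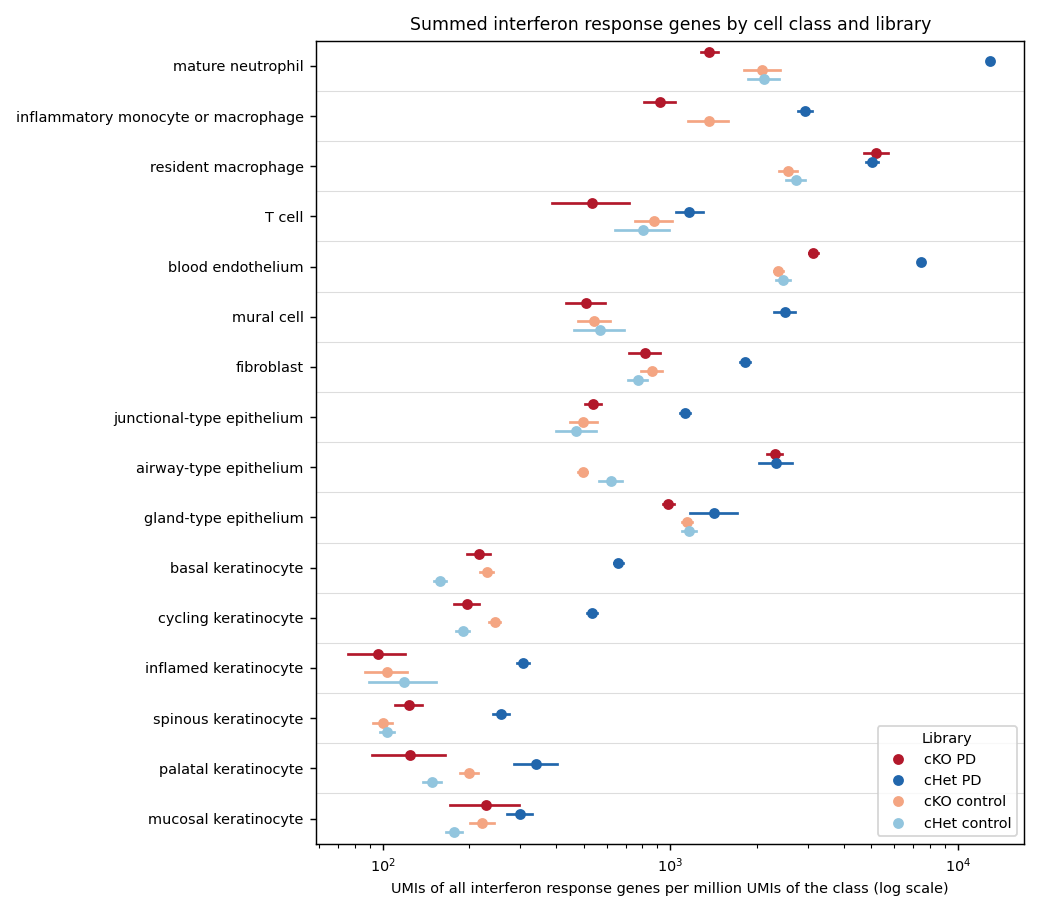
Summed level of the 37 members in 16 classes (rows) in each of the 4 libraries, in CPM on a log axis, with points at the level and bars for the 95% counting interval. Neutrophils of cHet_PD lie highest at 12882 CPM, while the spinous keratinocytes of the controls lie at 100 and 104 CPM.

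Ligature periodontitis in heterozygous gingiva went with higher member levels in every class that could be compared. Over 10 classes with 40 cells in both libraries, the summed level in cHet_PD was 1.69 to 4.93 times that in cHet_control, and the interval of the ratio lay above 1 in all 10. The ratio of 4.93 was that of cornifying granular keratinocytes, where only 2 members held enough UMIs to be tested. Of 189 pairs of a member and a class that held enough UMIs, 72 counted as higher and 2 as lower, where 5.83% of all gene and class pairs were higher and 6.63% lower. These shares over all tested genes are called the background below. Neutrophils could not be compared here, since the control had 24.

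Blood endothelium showed the broadest difference of those classes. Of 33 members tested 22 were higher in cHet_PD than in cHet_control and 0 lower, where 7.03% of all genes tested in that class were higher and 6.17% lower. The members' median log2 ratio was 1.37, against 0.02 over all tested genes, and their summed level was 3.01-fold higher (2.84 to 3.19).

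Rsad2 and Ifit2 had the largest ratios among those 22 with UMIs in both libraries. Rsad2 had 1151 CPM in cHet_PD endothelium, against 58.0 CPM in cHet_control, a 19.9-fold ratio (13.8 to 29.7). In the cKO libraries the same gene had 219 CPM in PD and 67.0 CPM in control. Ifit2, a binder of viral RNA that slows translation, had 428 CPM in cHet_PD and 22.0 CPM in cHet_control, 19.4-fold higher (10.8 to 39.1). Its CPM in the cKO libraries were 139 in PD and 34.4 in control, so cKO_PD lay between cHet_PD and both controls for both genes.

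Ifit1 had 725 CPM in endothelium of cHet_PD and 96.0 CPM in cHet_control (7.55-fold higher, 5.66 to 10.3). Ifit3, whose human form steadies IFIT1 on RNA, had 295 and 34.0 CPM in cHet_PD and cHet_control (8.68-fold higher, 5.36 to 15). Oasl1, known in mouse as a brake on translation of Irf7, had 102 CPM in cHet_PD and 8.0 CPM in cHet_control (12.7-fold higher, 4.88 to 47.2). These 3 genes thus differed more than the endothelial sum did. Slfn4 had 152 CPM in cHet_PD, 10.0 CPM in cHet_control, 60.1 CPM in cKO_PD and 30.9 CPM in cKO_control, where neutrophils of cHet_PD had 4769 CPM of it. Isg20, an exonuclease that degrades RNA, and Zbp1, a sensor of Z-form nucleic acid, had ratios of 14.5 (2.47 to 583) and 11.1 (1.88 to 452). Both of the last intervals rest on 1 UMI in cHet_control.

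Irf7 and Usp18 also counted as higher, with smaller ratios. Irf7, the transcription factor that amplifies interferon-alpha genes, had 63.8 CPM in cHet_PD endothelium and 26.0 CPM in cHet_control, 2.45-fold higher (1.38 to 4.76). Usp18, which shuts down the receptor, had 67.4 and 20.0 CPM in cHet_PD and cHet_control (3.37-fold higher, 1.77 to 7.22). Stat2 had 141 CPM in cHet_PD and 114 CPM in cHet_control, Isg15 had 51.2 and 30 CPM, and Bst2, which tethers budding virus, had 53.0 and 32.0 CPM in cHet_PD and cHet_control. The intervals of these last 3 ratios held 1, with ratios of 1.24, 1.71 and 1.66. Slfn5 was the most abundant member of the class by share and had 1325 CPM in cHet_PD and 852 CPM in cHet_control, under the 2-fold limit. Ifi27l2a, a small interferon-induced membrane protein, ran the other way with 11.4 CPM in cHet_PD and 32.0 CPM in cHet_control, also under that limit.

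Basal keratinocytes, the proliferative layer on the basement membrane, had a low member level in control and the largest summed ratio among classes with over 10 tested members. Their sum was 659 CPM in cHet_PD and 158 CPM in cHet_control, 4.17-fold higher (3.93 to 4.44). Of 26 members 10 were higher and 0 lower, against 5.25% of all tested genes higher and 3.26% lower. The median log2 ratio was 0.79, against -0.04 over all tested genes.

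Ifit1 had 72.4 CPM in basal keratinocytes of cHet_PD and 0.587 CPM in cHet_control, a ratio of 123 (56.0 to 338). Usp18 had 58 UMIs (12.9 CPM) in cHet_PD and 0 UMIs in cHet_control, and was at least 44.0-fold higher against 3 UMIs. Both genes were close to absent from the control layer. Oasl2 had 32.7 CPM in cHet_PD and 2.74 CPM in cHet_control, 11.9-fold higher (7.93 to 18.6). Rtp4, a receptor-transporting protein that restrains the response in mouse, had 18.9 and 1.37 CPM in cHet_PD and cHet_control, 13.8-fold higher (7.80 to 26.3). Irf9 and Stat2, the transcription factors, had ratios of 3.42 (2.98 to 3.92) and 3.96 (3.07 to 5.14). Parp9 and Dtx3l, which work as a pair that tags histones and damaged DNA, had ratios of 4.57 (3.82 to 5.50) and 3.85 (3.26 to 4.56). Stat2 thus counted as higher here and did not in endothelium, and the difference between the classes was not tested.

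In the other classes of the heterozygous pair 0 to 10 members were higher. Fibroblasts had 10 of 26 members higher and 1 lower (background 7.23% higher and 10.8% lower), with Rsad2 at 72.9 CPM in cHet_PD and 1.19 CPM (1 UMI) in cHet_control, Slfn5 at 265 and 33.3 CPM, and Ifi204 at 190 and 36.9 CPM in cHet_PD and cHet_control. Junctional-type epithelium had 10 of 22 higher and 1 lower (background 8.12% higher and 7.97% lower), and Ifit1 had 162 CPM in cHet_PD and 47.4 CPM in cHet_control. Only 48 cells of that class came from cHet_control. Cycling keratinocytes had 7 of 24 higher (background 5.21% higher and 4.25% lower) and inflamed keratinocytes 7 of 16 (background 8.98% and 9.19%). Palatal keratinocytes had 3 of 8 higher (background 5.81% higher and 7.03% lower) and cornifying granular keratinocytes 1 of 2 (background 6.7% and 15.3%). That 1 was Ifi204, with 20 UMIs in cHet_PD and 0 in cHet_control, so it was tested only through the library where it was high. Spinous keratinocytes had 2 of 18 higher (background 2.3% higher and 3.89% lower) and mucosal keratinocytes 0 of 14 (background 3.63% and 3.84%). None of these 6 classes had a lower member. By gene, Parp9 was higher in 7 of 9 classes where it was tested, Ifit1 in 6 of 7 and Dtx3l in 6 of 9. Parp9 and Dtx3l overlap in position, so their counts are not independent in that respect.

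A limit of 30 cells, chosen after seeing the data, let in 3 classes with 38 or 39 cells in cHet_control. Mural cells then had 8 of 12 members higher (background 11.6% higher and 9.51% lower), with Ifit1 at 263 CPM in cHet_PD and 5.56 CPM (1 UMI) in cHet_control. The mural sum was 4.40-fold higher (3.56 to 5.48), a larger ratio than that of basal keratinocytes. Phagocytes had 8 of 31 higher and 1 lower (background 11% higher and 13.6% lower), and their sum was 1.46-fold higher (1.34 to 1.58). T cells had 2 of 9 higher and 0 lower (background 8.62% higher and 7.25% lower). Phagocyte Rsad2 had 524 CPM in cHet_PD and 103 CPM in cHet_control, while Ifi27l2a had 27.9 and 335 CPM in cHet_PD and cHet_control.

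In the cKO libraries the periodontitis difference was smaller and of mixed sign. The summed level in cKO_PD was 0.609 to 4.65 times that in cKO_control over 14 classes, above 1 beyond counting error in 3 classes, below 1 in 5 and with 1 inside the interval in 6. Of 195 pairs of a member and a class 36 counted as higher and 21 as lower (background 4.68% higher and 6.57% lower). Basal keratinocytes had 216 CPM in cKO_PD and 230 CPM in cKO_control, with 0 of 16 members higher (background 2.66%) and 1 lower (background 2.38%). Their Ifit1 had 4.79 CPM in cKO_PD and 3.80 CPM in cKO_control.

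Endothelium of cKO_PD had members on both sides. Of 29 members tested 4 were higher (background 4.47%) and 3 lower (background 6.57%), and the sum was 1.32-fold higher (1.25 to 1.40). The count of higher members moved with the processing. It was 1 with the controls' floor of 1500 UMIs set for every cell, 7 after thinning every cell to 1000 UMIs, and 8 both with a mean over cells and with a 1.5-fold rule. The 4 higher members were Ifit2 (139 CPM in cKO_PD and 34.4 CPM in cKO_control), and, in the same libraries, Rsad2 (219 and 67.0 CPM), Ifit1 (170 and 58.2 CPM) and Ifi204 (86.3 and 35.3 CPM). The 3 lower ones were Ifi35 (6.26 CPM in cKO_PD and 38.8 CPM in cKO_control), a partner of Nmi, Ifi27l2a (10.0 and 45.0 CPM) and Irf7 (10.0 and 31.8 CPM).

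Phagocytes of cKO_PD split by member. Of 20 tested, 4 were higher (background 12.4%) and 7 lower (background 13.2%) than in cKO_control. Ifit1 had 97.2 CPM in cKO_PD and 2.39 CPM (1 UMI) in cKO_control, Rsad2 had 394 and 31.1 CPM, and Oasl1 had 270 and 38.2 CPM in cKO_PD and cKO_control. Stat2 had 10.8 CPM in cKO_PD and 115 CPM in cKO_control, and Oasl2 had 13.5 and 105 CPM in cKO_PD and cKO_control. The effectors Ifit1 and Rsad2 and the signal carrier Stat2 thus stood on opposite sides. Resident macrophages were 22 of the 94 phagocytes in cKO_PD, against 42 of 62 in cKO_control, and their part in these values was not tested. Rsad2 had 1699 CPM in the 22 resident macrophages of cKO_PD and 43.2 CPM in the 42 of cKO_control. In inflammatory monocytes or macrophages it had 24.3 CPM in 72 cells of cKO_PD and 0 UMIs in 20 cells of cKO_control.

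Airway-type epithelium, cells with markers of nasal or airway lining that fall outside gingiva proper, was the class of the cKO pair with the most members higher. Its sum was 2303 CPM in cKO_PD and 496 CPM in cKO_control, 4.65-fold higher (4.34 to 4.98), and 16 of 26 members were higher (background 7.7%) and 0 lower (background 13.9%). The median log2 ratio was 1.24, against -0.25 over all tested genes. Rsad2 had 108 CPM in cKO_PD and 0.697 CPM (4 UMIs) in cKO_control, Ifit3 had 306 and 4.01 CPM, and Ifit1 had 442 and 15.5 CPM in cKO_PD and cKO_control. In the heterozygous libraries, with only 17 such cells in cHet_PD, the sum was 2325 CPM in cHet_PD and 620 CPM in cHet_control. Thinning every cell to 1000 UMIs left 6 members higher in the cKO pair. The class held 79 cells in cKO_PD and 517 in cKO_control, and its makeup differed between them. With 3 markers needed in place of 2, 0 of these cells remained in cKO_PD and 432 in cKO_control, and markers of basal keratinocytes summed to 595 CPM in cKO_PD and 4852 CPM in cKO_control. A change of level and a change of the cells in the class cannot be told apart here.

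Gland-type cells marked by Car6 and Pigr had 8 of 21 members higher in cKO_PD than in cKO_control (background 4.14%) and 1 lower (background 4.71%), although their sum was 0.862 of the control's (0.812 to 0.915). The 1 lower member was Ifi27l2a, with 252 CPM in cKO_PD and 828 CPM in cKO_control, and it made up 72.5% of member UMIs in that control class. Rsad2 had 27.3 CPM in cKO_PD and 0.501 CPM (1 UMI) in cKO_control. A sum over members can therefore run against most of them where 1 member dominates it.

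Fibroblasts had 3 of 16 higher in cKO_PD than in cKO_control (background 7.72%) and 3 lower (background 14.8%). Ifi204 had 67.2 CPM in cKO_PD and 4.70 CPM (3 UMIs) in cKO_control, and Slfn5 had 58.0 and 14.1 CPM in cKO_PD and cKO_control. Stat2 had 27.5 CPM in cKO_PD and 119 CPM in cKO_control. After thinning, 0 members of this class counted as higher.

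The remaining 8 classes of the cKO pair had 1 member higher and 6 lower in all. Mucosal keratinocytes had 1 of 8 higher (background 4.4%) and 2 lower (background 6.54%). Palatal keratinocytes had 1 of 10 lower (background 5.55%), cycling keratinocytes 1 of 17 (background 2.8%), mural cells 1 of 7 (background 9.49%) and T cells 1 of 2 (background 6.92%). None was higher in these 4 classes, where the background was 2.12%, 2.31%, 7.45% and 8.9% in the same order. Spinous keratinocytes (10 members tested, background 1.05% higher and 2.63% lower), junctional-type epithelium (9 members, 3.6% and 4.05%) and inflamed keratinocytes (4 members, 5.72% and 5.28%) had none in either direction.

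Between the periodontitis libraries the members were lower in the cKO in nearly every class. The summed level in cKO_PD lay below that in cHet_PD beyond counting error in 12 of 13 classes, with ratios of 0.106 to 0.762. The exception was the mucosal keratinocytes, at 0.762 with 1 inside the interval (0.561 to 1.02). Of 244 pairs of a member and a class 120 counted as lower and 1 as higher (background 3% lower and 2.25% higher). This comparison and the heterozygous one share the cHet_PD library, so they are not separate evidence of a high level there.

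Neutrophils differed most. All 31 members tested were lower in cKO_PD than in cHet_PD, where 10.6% of all genes tested in the class were lower and 9.6% higher. Members such as Ifit1, Ifit2, Ifit3, Isg15 and Rsad2 held under 20 UMIs in cKO_PD and were tested only through cHet_PD. The count therefore leans on members that passed the limit where they are high. The background genes passed the same limit. The members' median log2 ratio was -2.74, against 0.08 over all tested genes, and the sum was 9.43-fold lower (8.80 to 10.1), or 14.1-fold lower without Slfn4. The remaining 6 members, Usp18, Oas1a, Bst2, Ifi44, Ifi35 and Dhx58, held under 20 UMIs over both libraries and were not tested. Leaving out cells under 1500 UMIs left enough UMIs for fewer members, of which 13 counted as lower.

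Rsad2 had 23.2 CPM (15 UMIs) in 455 neutrophils of cKO_PD and 1755 CPM (1182 UMIs) in 649 of cHet_PD, 75.7-fold lower (45.7 to 136). Ifit1 had 7.73 CPM (5 UMIs) in cKO_PD and 573 CPM (386 UMIs) in cHet_PD, 74.1-fold lower (31.5 to 230). The few control neutrophils had 1 UMI of Rsad2 each in cKO_control and cHet_control, and 0 and 1 of Ifit1. Both genes were thus far lower in cKO_PD than in cHet_PD, with too few control cells to set beside them.

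Ifit3 and Isg15 had 1 UMI each in cKO_PD, against 113 and 60 UMIs in cHet_PD, and were 108-fold (19.1 to 4323) and 57.6-fold lower (9.95 to 2313). Ifit2 had 0 UMIs in cKO_PD and 23 in cHet_PD, and was at least 7.36-fold lower against 3 UMIs. Slfn5 had 15.5 CPM in cKO_PD and 637 CPM in cHet_PD (41.2-fold lower, 22.2 to 86.5). Oasl1 had 9.28 and 290 CPM in cKO_PD and cHet_PD (31.2-fold lower, 14.1 to 86.1), and Ifi204 had 37.1 and 475 CPM (12.8-fold lower, 8.45 to 20.3). Irf7, Stat2 and Irf9 were lower too. Irf7 had 3.09 CPM in cKO_PD and 59.4 CPM in cHet_PD, Stat2 had 4.64 and 68.3 CPM, and Irf9 had 40.2 and 199 CPM in cKO_PD and cHet_PD.

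The smallest differences among the 31 were those of Slfn1, Irf9, Ifi27l2a and Slfn4. Slfn4, the most abundant of them by share, differed less than each gene named above except Irf9. Slfn4 had 790 CPM in cKO_PD, 4769 CPM in cHet_PD, 983 CPM in cKO_control and 1264 CPM in cHet_control, 6.03-fold lower in cKO_PD than in cHet_PD (5.49 to 6.64). Slfn1 had 135 CPM in cKO_PD, 591 CPM in cHet_PD, 124 CPM in cKO_control and 178 CPM in cHet_control. Both Schlafen genes had UMIs in all 4 libraries, unlike Ifit3, Ifit3b and Isg15, which had 0 UMIs in the control neutrophils.

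Neutrophil maturity moved with this difference. Ngp, a secondary granule protein made by immature cells, had 25120 CPM in neutrophils of cKO_PD, 1626 CPM in cHet_PD, 21651 CPM in cKO_control and 39519 CPM in cHet_control. Csf3r, the G-CSF receptor of mature cells, had 527 CPM in cKO_PD and 1807 CPM in cHet_PD. Cells without any UMI of an immature marker were 68 of 455 (14.9%) in cKO_PD and 588 of 649 (90.6%) in cHet_PD. Among those cells alone, a selection made after seeing the data, the sum was 1767 CPM (1471 to 2106) in cKO_PD and 13854 CPM (13552 to 14162) in cHet_PD. The controls held 4 such cells each, with 1852 CPM (1131 to 2861) in cKO_control and 7888 CPM (6149 to 9966) in cHet_control, so the cHet_control value lay between those of cKO_PD and cHet_PD. Between the PD libraries 24 of 30 members in these cells were lower in cKO_PD and 0 higher, against 5.76% of 3575 genes lower, and the sum was 7.84-fold lower (6.57 to 9.43). The separate class of immature granulocytes held 272 cells in cKO_PD, at 721 CPM, and 8 in cHet_PD.

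Blood endothelium of cKO_PD had 15 of 33 members lower than in cHet_PD and 0 higher (background 1.59% lower and 1.14% higher). The median log2 ratio was -0.99, against -0.04 over all tested genes, and the sum was 2.36-fold lower (2.26 to 2.46). Irf7 had the lowest ratio, with 10.0 CPM in cKO_PD and 63.8 CPM in cHet_PD, 6.38-fold lower (3.12 to 15.2). Rsad2 was 5.26-fold lower (4.50 to 6.17), Ifit3 was 4.53-fold lower (3.40 to 6.16) and Ifit1 was 4.26-fold lower (3.57 to 5.13). Endothelial Rsad2 differed less between these libraries than neutrophil Rsad2 did. That contrast was not tested.

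Mural cells had 8 of 13 members lower and 0 higher (background 4.81% lower and 4.83% higher), and their sum was 4.90-fold lower. Ifit1 had 15.1 CPM (5 UMIs) in cKO_PD and 263 CPM (62 UMIs) in cHet_PD, and Rsad2 had 18.1 and 297 CPM in cKO_PD and cHet_PD. Thinning left 2 mural members lower, and keeping cells of mixed lineage or admitting members with 5 UMIs gave 17 and 16. Fibroblasts had 12 of 25 lower and 0 higher (background 5.05% lower and 3.25% higher), with Rsad2 at 15.3 CPM in cKO_PD and 72.9 CPM in cHet_PD and Slfn5 at 58.0 CPM in cKO_PD and 265 CPM in cHet_PD.

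Phagocytes had 15 of 30 members lower and 0 higher (background 6.27% lower and 6.52% higher), and the sum was 2.06-fold lower. Resident macrophages were 22 of these 94 cells in cKO_PD and 65 of 156 in cHet_PD. The part of this mix in the pooled values was not tested. In inflammatory monocytes or macrophages alone the sum was 3.21-fold lower (2.81 to 3.68). After thinning 3 members counted as lower. Oasl2 had 13.5 CPM in cKO_PD and 106 CPM in cHet_PD, Stat2 had 10.8 and 57.0 CPM, and Ifih1, the RNA sensor MDA5, had 81.0 and 272 CPM in cKO_PD and cHet_PD. Rsad2 did not count as lower over all phagocytes, with 394 CPM in cKO_PD and 524 CPM in cHet_PD. The parts of the class differed. In inflammatory monocytes or macrophages Rsad2 had 24.3 CPM (7 UMIs, 72 cells) in cKO_PD and 373 CPM (159 UMIs, 91 cells) in cHet_PD, 15.4-fold lower (7.30 to 38.9), and 13 of 20 members were lower there and 0 higher (background 8.68% lower and 8.92% higher). In resident macrophages it had 1699 CPM (139 UMIs, 22 cells) in cKO_PD and 720 CPM (236 UMIs, 65 cells) in cHet_PD. The 22 resident cells fell short of the 40 needed for a call. After thinning to 1000 UMIs and without Slfn4, the median resident macrophage had 1 member UMI in cKO_PD and 2 in cHet_PD, and the highest had 47 and 35 in cKO_PD and cHet_PD. The mean ran the other way, at 6.2 in cKO_PD and 4.93 in cHet_PD. At least 10 were held by 20% of these cells in cKO_PD (5.73% to 43.7%) and 13.1% in cHet_PD (5.84% to 24.2%). A lower level in resident macrophages of cKO_PD is thus not shown. The 10% of these cells with the most held 55.6% of the member UMIs of 20 cells in cKO_PD and 50.2% of those of 61 cells in cHet_PD.

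Among epithelial classes, basal keratinocytes of cKO_PD had 9 of 24 members lower and 0 higher (background 1.04% lower and 0.391% higher), and the sum was 3.05-fold lower (2.78 to 3.37). Ifit1 had 4.79 CPM in cKO_PD and 72.4 CPM in cHet_PD (15.1-fold lower, 8.33 to 30.6). Oasl2 had 3.92 CPM in cKO_PD and 32.7 CPM in cHet_PD (8.35-fold lower, 4.28 to 18.6). Usp18 had 1 UMI in cKO_PD and 58 in cHet_PD (29.6-fold lower, 5.11 to 1191). Basal keratinocytes of cKO_PD were thus near cKO_control in sum, at 216 and 230 CPM.

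Junctional-type epithelium had 10 of 20 lower and 0 higher in cKO_PD (background 1.24% lower and 1.01% higher), with Ifit1 at 13.6 CPM in cKO_PD and 162 CPM in cHet_PD. Ifi204, the leading member of that class, had 284 CPM in cKO_PD and 314 CPM in cHet_PD, with 1 inside the interval of the ratio (0.805 to 1.01). Cycling keratinocytes had 8 of 21 lower (background 0.778% lower and 0.476% higher) and inflamed keratinocytes 5 of 18 (background 2.01% and 1.35%), with 0 higher in both. Spinous keratinocytes had 1 of 14 lower (background 0.482% lower and 0.325% higher), palatal keratinocytes 1 of 3 (background 3.55% and 2.05%) and T cells 3 of 6 (background 3.48% and 3.42%), with 0 higher. Mucosal keratinocytes had 2 of 6 lower and 1 higher (background 5.55% lower and 1.95% higher). By gene, Oasl2 was lower in 9 of the 11 classes where it was tested and Ifit1 in 8 of 10. The single higher value in this comparison was Ifi204 in mucosal keratinocytes, with 116 CPM (27 UMIs) in cKO_PD and 39.1 CPM (53 UMIs) in cHet_PD.

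**Figure D2:**
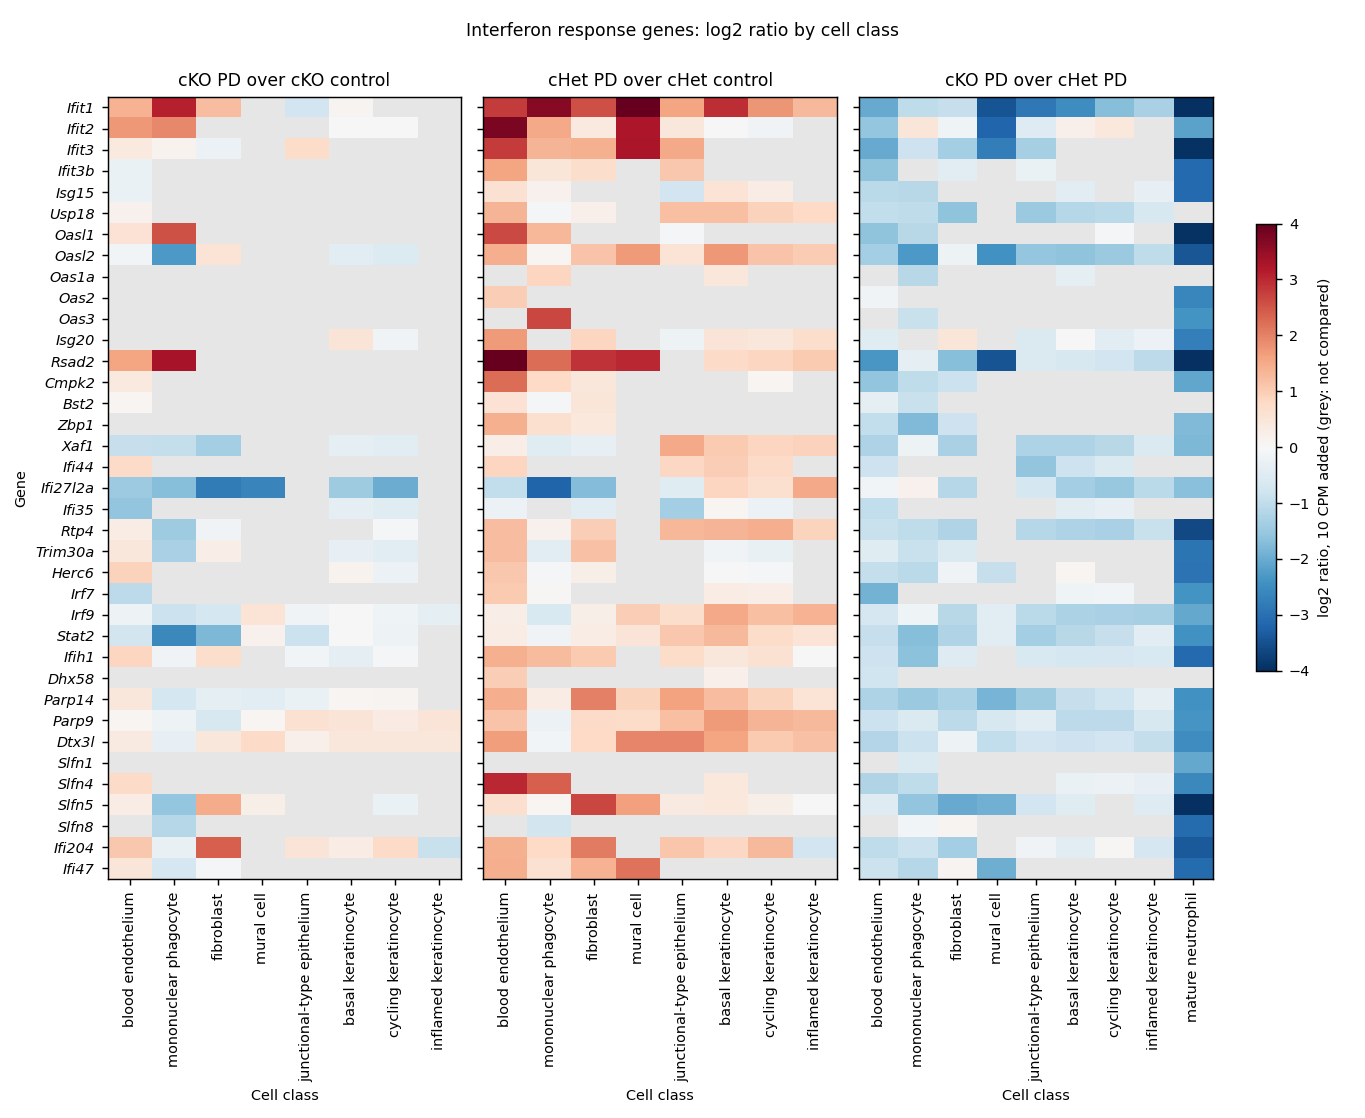
Log2 ratios of CPM, each with 10 added, for members (rows) by class (columns) in 3 comparisons; red is higher in the group named first, blue is lower and grey was not compared. Mural cells and phagocytes, with 39 cells in cHet_control, are drawn only for display in the heterozygous comparison. The cKO_PD over cHet_PD panel is almost wholly blue. Over all 13 classes of that comparison, some not drawn, 120 of 244 values counted as lower and 1 as higher. The 1 higher value is in mucosal keratinocytes, which are not drawn.

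Fewer members differed between the control libraries than in the other pairs. In 12 classes the summed level in cKO_control was 0.80 to 1.46 times that in cHet_control, above 1 beyond counting error in 4, below 1 in 1 and with 1 inside the interval in 7. Of 173 pairs of a member and a class 7 were higher and 4 lower, both above the background (0.909% higher and 1.45% lower). Basal keratinocytes had the highest ratio, 230 CPM in cKO_control and 158 CPM in cHet_control, with 0 of 20 members higher (background 0.0748%) and 0 lower (background 0.0416%). Their Ifit1 had 3.80 CPM (24 UMIs) in cKO_control and 0.587 CPM (6 UMIs) in cHet_control. Its PD ratio in the heterozygous pair thus rests on the lower of the 2 controls. In endothelium 0 of 29 members were lower (background 0.943%) and 1 was higher (background 1.23%), Slfn4 with 30.9 CPM in cKO_control and 10.0 CPM (5 UMIs) in cHet_control.

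Ifi27l2a, taken by class, was lower in cKO_PD than in cKO_control in 9 of the 11 classes where it was tested (background over all gene and class pairs 6.57%) and higher in 1, the airway-type epithelium. It was lower in cKO_PD than in cHet_PD in 7 of 10 classes and higher in 0 (background 3% lower). In cHet_PD over cHet_control it was higher in 2 of 9 classes and lower in 1 (background 5.83% higher and 6.63% lower). The controls differed too. It was higher in cKO_control than in cHet_control in 3 of 9 classes and lower in 0 (background 0.909% higher and 1.45% lower). In fibroblasts it had 9.16 CPM in cKO_PD, 32.3 CPM in cHet_PD, 122 CPM in cKO_control and 130 CPM in cHet_control, lower in PD in both genotypes. In cycling keratinocytes it had 9.74 CPM in cKO_PD, 46.2 CPM in cHet_PD, 67.6 CPM in cKO_control and 26.3 CPM in cHet_control. Gland-type cells had 252 CPM of it in cKO_PD, 610 CPM in cHet_PD, 828 CPM in cKO_control and 709 CPM in cHet_control. Whether RNA freed from such cells reached the other classes was not tested.

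How member UMIs were spread over cells was described after thinning each cell to 1000 UMIs and leaving Slfn4 out. In neutrophils 167 cells of cKO_PD and 366 of cHet_PD were too shallow, which left 288 and 283. The median cell had 0 member UMIs in cKO_PD and 3 in cHet_PD. In cHet_PD 62 of 283 neutrophils (21.9%, exact interval 17.2 to 27.2) had at least 10, and the highest had 134. In cKO_PD 0 of 288 did, which allows a share of up to 1.27% by the exact interval. The 10% of cHet_PD neutrophils with the most held 53.9% of the member UMIs. A minority of cells thus carried most of them, beside a lower level in many others. Without thinning, 47.3% of cKO_PD and 85.8% of cHet_PD neutrophils had at least 1 member UMI outside Slfn4.

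In blood endothelium the median thinned cell had 2 member UMIs in cKO_PD, 6 in cHet_PD, 1.5 in cKO_control and 2 in cHet_control. The share with at least 10 was 7.14% in cKO_PD and 34.0% in cHet_PD, with 0 cells in cKO_control and 2.33% in cHet_control. Phagocytes reached 10 in 4.60% of cells in cKO_PD, 10.2% in cHet_PD, 1.61% in cKO_control and 5.13% in cHet_control. In basal keratinocytes 20.9% of cells in cKO_PD, 39.2% in cHet_PD, 21.4% in cKO_control and 13.7% in cHet_control had at least 1. The share was thus higher in cHet_PD beyond the exact intervals in endothelium, with at least 10, and in basal keratinocytes, with at least 1. The phagocyte interval was 5.82% to 16.3% in cHet_PD and overlapped that of each other library. In cHet_control it was 0.627% to 17.3%, on 2 of 39 cells.

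**Figure D3:**
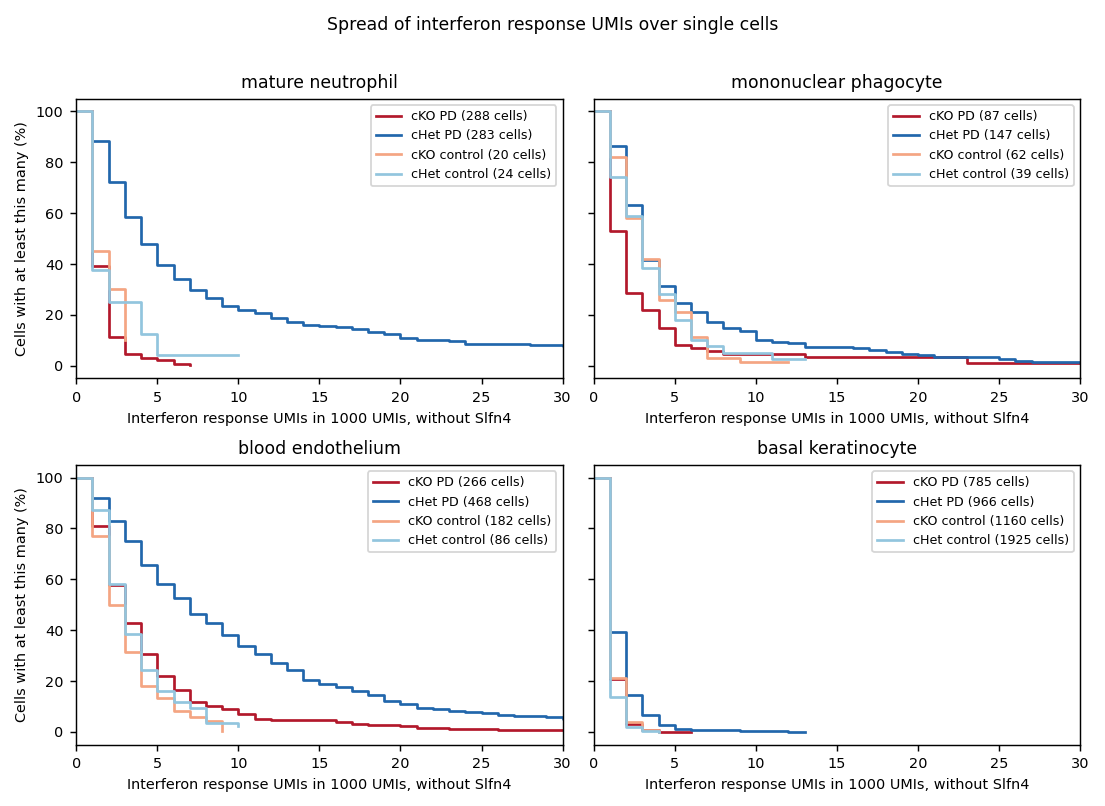
Percent of cells (vertical axis) with at least a given number of member UMIs (horizontal axis) after thinning to 1000 UMIs, without Slfn4, in 4 classes and 4 libraries. The cHet_PD curve lies highest in neutrophils and endothelium, where 21.9% and 34.0% of cells had at least 10.

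Free RNA in the suspension can carry transcripts of one class into another, and its part in these levels was not tested. In cHet_PD there were 0.120 UMIs of Ifit1 per UMI of Slfn4 in neutrophils, 4.76 in blood endothelium, 18.1 in basal keratinocytes, 29.6 in junctional-type epithelium, 37.0 in fibroblasts and 62.0 in mural cells. Slfn4 itself had 4769 CPM in neutrophils and 4.01 CPM in basal keratinocytes. The ratio was thus higher in these 5 classes than in neutrophils. In spinous and mucosal keratinocytes the ratios were nearer to that of neutrophils, at 0.952 and 0.867, on 20 and 13 UMIs of Ifit1.

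The upstream genes were listed apart from the members. Ifnb1, which encodes interferon-beta, had 5 UMIs in 3 cells of cKO_PD, 20 UMIs in 12 cells of cHet_PD and 0 UMIs in both controls. Of these, 5 UMIs in cKO_PD and 11 in cHet_PD lay in mononuclear phagocytes, at 13.5 and 14.6 CPM in that class. Ifna1, Ifna2, Ifna4, Ifnl2 and Ifnl3 had 0 UMIs in all 4 libraries. Ifng, the type II interferon of T and natural killer cells, had 6 UMIs in cKO_PD, 6 in cHet_PD, 13 in cKO_control and 13 in cHet_control.

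The receptor genes Ifnar1 and Ifnar2 did not count as different in neutrophils, blood endothelium or phagocytes in any pair with 40 cells. Ifnar1 had 28.8 CPM in endothelium of cKO_PD, 42.8 CPM in cHet_PD, 38.8 CPM in cKO_control and 44.0 CPM in cHet_control. Ifnar2 had 226 CPM in neutrophils of cKO_PD and 236 CPM in cHet_PD, with a ratio of 0.956. Jak1 had 447 CPM in neutrophils of cKO_PD and 558 CPM in cHet_PD.

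Of the 24 tested ligands, receptors, kinases, sensors, factors and brakes of the pathway, 4 were higher in endothelium of cHet_PD than of cHet_control (Jak2, Ddx58, Sting1 and Samhd1) and 0 lower, where the background was 7.03% and 6.17%. In neutrophils 6 of 21 were lower in cKO_PD than in cHet_PD (Il10rb, Jak2, Ddx58, Irf5, Socs3 and Adar) and 0 higher, where it was 10.6% and 9.6%.

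Interferon-gamma-type genes, a list that holds no member, were counted in the same way. Of 11 tested in endothelium 9 were higher in cHet_PD than in cHet_control (background 7.03%) and 9 were lower in cKO_PD than in cHet_PD (background 1.59%), and in neutrophils 7 of 8 were lower in cKO_PD than in cHet_PD (background 10.6%). Phagocytes had 5 of 8 lower in cKO_PD than in cHet_PD (background 6.27%) and mural cells 4 of 6 (background 4.81%). Elsewhere in that pair few were lower, with 2 of 9 in fibroblasts (background 5.05%), 1 of 9 in basal keratinocytes (background 1.04%), 1 of 9 in junctional-type epithelium (background 1.24%), 0 of 7 in cycling keratinocytes and 0 of 5 in inflamed keratinocytes. The members had 9 of 24, 10 of 20, 8 of 21 and 5 of 18 lower in those last 4 classes. In cHet_PD over cHet_control 1 of 8 was higher in junctional-type epithelium (background 8.12%), against 10 of 22 members. Fibroblasts had 7 of 8 higher (background 7.23%), against 10 of 26 members, and basal keratinocytes 4 of 9 (background 5.25%), against 10 of 26. Cycling keratinocytes had 2 of 8 higher (background 5.21%), against 7 of 24, and inflamed keratinocytes 1 of 5 (background 8.98%), against 7 of 16. Whether the lists differ was not tested. Cxcl9, a T cell attractant, had 16.3 CPM in endothelium of cKO_PD, 267 CPM in cHet_PD, 41.5 CPM in cKO_control and 30 CPM in cHet_control. Gbp2, a guanylate-binding protein, had 12.4 CPM in neutrophils of cKO_PD and 316 CPM in cHet_PD. Many of these genes respond to both interferon types, so responses to type I and type II interferon cannot be told apart from these levels.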

How the data were processed

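Single-cell libraries of mouse gingiva were analysed from tables of UMI counts per gene and barcode. The submitters' processing notes list fastp, STARsolo 2.7.10a and mm10, and the deposited values are whole-number UMI counts for which no source used here records a normalization. The labels' protocols describe BD Rhapsody capture, while another label names 10x Genomics. Barcodes were kept with 200 genes and at most 20% mitochondrial UMIs: 6595 of 6684 in cKO_PD, 8967 of 9072 in cHet_PD, 7673 of 9331 in cKO_control and 7915 of 8767 in cHet_control.

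A cell joined a class with UMIs of 2 of its markers and at least 3 marker UMIs. Epithelial layers were also set by the best layer score, which had to lead the next by 0.2. Near that cut lay 16.3% to 22.6% of the epithelial cells of a library. No doublet caller was run. Cells in which another lineage's marker UMIs reached 25% of the class's own were left out as mixed (5.19%, 7.75%, 3.10% and 2.45% in the same order). Unassigned cells were 1.02% to 3.49%, and 14.7% to 17.7% were epithelium with no layer. The gate for gland-type cells was set after seeing the data. Counts were summed per class and library with Python 3.11.15, numpy 2.4.6, scipy 1.17.1 and pandas 2.3.3. Levels have exact Poisson intervals, ratios exact conditional binomial intervals and shares of cells exact Clopper-Pearson intervals, all at 95% and for counting error only. Bounds against 0 UMIs use 3 counts in the library. The depth limits rare members most in classes with few cells. TMM factors came from edgeR 4.0.16 in R 4.3.3. The call rule was tested on simulated counts.

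The members, the gene lists and the rules were chosen with earlier results of these data known. Named were, in each class and pair, the members that counted as higher or lower, largest ratio first, up to 6 each way, plus Isg15, Ifit1, Ifit3, Irf7, Stat2, Bst2, Ifi27l2a, Rsad2 and Usp18, with values for the main classes and counts for the rest. Genes of the pathway were named by the same rule, and 1 of them is not reported here. Others named for their level or spread were chosen after seeing the data. Alternatives were a mean over cells, thinning to 1000 UMIs, a floor of 1500 UMIs in every library, a mitochondrial cap of 10%, a gate of 3 markers, mixed cells kept, TMM scaling, members with 5 UMIs and a 1.5-fold rule.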

Additional observations from a re-analysis of the deposited data

Results flagged for a closer look

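In blood endothelium Irf7 was lower in PD in the cKO pair (10.0 CPM in cKO_PD and 31.8 CPM in cKO_control) and higher in PD in the heterozygous pair (63.8 CPM in cHet_PD and 26.0 CPM in cHet_control). The log2 ratios were -1.06 and 1.04, and their difference, cKO minus cHet, was -2.10. In palatal keratinocytes Ifi27l2a had 5.08 CPM in cKO_PD and 29.0 CPM in cKO_control, against 32.7 CPM in cHet_PD and 6.78 CPM in cHet_control. Its log2 ratios were -1.37 and 1.35, and their difference was -2.72. Both are flagged because each pair of libraries moved the opposite way beyond counting error. With 1 library per group neither difference was tested.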

How the results depend on the processing

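No paired analysis was possible because the labels give no replicate numbers and a single library stands for every group. The alternatives were run on 17 counts and ranks that answer a comparison. A count of members cannot change sign, so only its size was followed. The counts and ranks that moved by over 1.5 times were the following, and the cause was not tested unless stated. Thinning to 1000 UMIs, which leaves fewer UMIs, moved the members higher in cHet_PD over cHet_control in junctional-type epithelium to 1 (main 10), and those higher in cKO_PD over cKO_control to 6 in airway-type epithelium (main 16), 7 in blood endothelium (main 4) and 0 in fibroblasts (main 3). It moved the members lower in cKO_PD than in cHet_PD to 3 in phagocytes (main 15) and 2 in mural cells (main 8). A mean over cells gave 6 in junctional-type epithelium and 8 in blood endothelium of the cKO pair. A floor of 1500 UMIs gave 1 in that endothelium and 13 in neutrophils (main 31), with fewer cells. The 1.5-fold rule, wider by construction, gave 8 higher in endothelium of the cKO pair, and 14 lower in basal keratinocytes (main 9) and 27 lower in endothelium (main 15) between PD libraries. In mural cells, mixed cells kept gave 17 lower and 5 UMIs gave 16. Blood endothelium ranked 2 in cKO_control by the mean over cells and after thinning (main 1). TMM scaling moved none of these counts; it shifted the median of all genes by over 0.1 log2 in a few classes, by 0.23 in airway-type epithelium and 0.17 in fibroblasts of the cKO pair. Of other values, 190 moved and 879 did not. Among these, the log2 ratio of the summed member level moved most often. After thinning it moved in 27 cases and not in 22, and with a mean over cells in 20 and not in 29. With mixed cells kept it moved in 14 and not in 35, and under TMM scaling in 3 and not in 46. The sizes of the summed ratios above thus depend on how cell depth is handled. In 14 cases an alternative left a library under 40 cells and gave no value.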
